A study of Mus musculus with 6 samples.

Results

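Janus kinases (JAKs) and signal transducers and activators of transcription (STATs) carry cytokine signals from the cell surface to the nucleus, and the transcripts examined here are the 4 JAK genes Jak1, Jak2, Jak3 and Tyk2 and the 4 STAT genes Stat2, Stat3, Stat4 and Stat6. They were taken by symbol from a table of 55401 gene entries, each symbol was found on 1 entry, and all 8 were among the 13180 genes tested. The cells were CD4+ T cells, the T lymphocytes that act as helpers, from spleens of naive wild-type C57BL/6 mice. After labelling with the division dye CFSE they were cultured for 48 h with 5 mM itaconate, a dicarboxylate made by activated macrophages, or with 5 mM NaCl as the control. Both arms received 200 U of IL-2 with anti-CD3 and anti-CD28 antibodies, so every library comes from activated cells that were given a JAK-activating cytokine. RNA was sequenced from 3 libraries per arm, and the comparison asks how the stimulated transcriptome differs with itaconate. Nothing in the labels ties the libraries of an arm to different mice or cultures, and p-values therefore cover only the spread of these samples, possibly a technical one. In the table the control columns are coded NAC. NaCl is the one other treatment in the labels, so the code was taken to mean NaCl, and every comparison rests on that reading.

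Many cytokine receptor chains hold JAKs. Binding of the cytokine brings a pair of JAKs together so that they phosphorylate each other, the receptor and then a STAT. The phosphorylated STATs pair and enter the nucleus. JAK1 and JAK3 serve the receptors that share the common gamma chain, among them those of IL-2, IL-4, IL-7 and IL-21. JAK2 and TYK2 serve the IL-12 and IL-23 receptors, JAK1 and JAK2 the interferon gamma receptor, and JAK1 and TYK2 the type I interferon receptor. In helper T cells STAT4 is known for the IL-12 response of the Th1 lineage, STAT6 for the IL-4 response of the Th2 lineage, and STAT3 for responses to IL-6, IL-21 and IL-23. STAT2 acts with IRF9 in the type I interferon response. These proteins are controlled mostly by phosphorylation, which RNA levels do not show.

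Stat3 and Jak2 were 1.59-fold and 1.56-fold lower with itaconate, and Stat6 was 1.19-fold lower. Stat4 was higher by 45.7%. Jak1, Jak3, Tyk2 and Stat2 did not pass the test. Of the 8 transcripts 1 rose, 3 fell and 4 did not pass in limma at an adjusted p (Benjamini-Hochberg, over all tested genes) under 0.05, against a background of 36.0% of all tested genes called, 18.2% higher and 17.8% lower. A share of 50.0% called among 8 genes is not read as a property of the family at that background. The median log2 fold change was −0.14 over the 8 transcripts and −0.00088 over all tested genes, and the median size of the change was 0.24 and 0.33.

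The promoters of the transcripts with the largest differences, and that of Stat2, are shown because STATs bind gene promoters themselves, Stat2 being the member whose promoter held matches to both a STAT and an interferon motif. Sequences are from RefSeq on GRCm38.p6, run 5′ to 3′ on the gene's strand, and cover the 250 bases before the most upstream start. All 8 members had an entry. Capitals mark matches on either strand to 5 motifs: the STAT motif TTCNNNGAA, its wider form TTCNNNNGAA, the interferon response motif GAAANNGAAA, the CCAAT box CCAAT and the GC box GGGCGG. The intervals are chr19:29251553-29251802 on the plus strand for Jak2, chr11:100939541-100939790 on the minus strand for Stat3, chr1:51986898-51987147 on the plus strand for Stat4 and chr10:128270248-128270497 on the plus strand for Stat2.
Jak2: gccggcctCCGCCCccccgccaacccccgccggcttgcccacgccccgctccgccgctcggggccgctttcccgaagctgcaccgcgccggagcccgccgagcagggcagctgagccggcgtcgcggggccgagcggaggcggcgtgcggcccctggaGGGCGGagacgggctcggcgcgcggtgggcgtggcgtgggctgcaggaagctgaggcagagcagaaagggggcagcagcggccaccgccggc
Stat3: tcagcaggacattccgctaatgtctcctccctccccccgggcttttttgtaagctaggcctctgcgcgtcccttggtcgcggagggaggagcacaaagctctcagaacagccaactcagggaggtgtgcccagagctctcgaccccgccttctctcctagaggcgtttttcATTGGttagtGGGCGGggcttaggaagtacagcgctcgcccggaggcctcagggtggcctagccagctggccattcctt
Stat4: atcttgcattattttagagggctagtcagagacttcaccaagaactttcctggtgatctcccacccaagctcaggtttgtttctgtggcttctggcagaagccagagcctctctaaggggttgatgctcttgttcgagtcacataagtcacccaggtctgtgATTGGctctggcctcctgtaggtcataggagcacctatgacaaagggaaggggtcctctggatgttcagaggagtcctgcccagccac
Stat2: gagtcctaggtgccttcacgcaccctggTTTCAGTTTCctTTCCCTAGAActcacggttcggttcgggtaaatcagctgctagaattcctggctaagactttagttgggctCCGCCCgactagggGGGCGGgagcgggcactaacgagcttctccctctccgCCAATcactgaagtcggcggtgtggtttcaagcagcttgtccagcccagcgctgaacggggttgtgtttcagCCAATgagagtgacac
The motif TTCNNNGAA was found in 0 of the 8 windows and is in 7.02% of the 32851 windows of the same length in the RefSeq table. TTCNNNNGAA was found in Stat2 alone, starting 210 bases before the start, and is in 5.85% of windows. GAAANNGAAA was also found in Stat2 alone, on the opposite strand with its match beginning 222 bases before the start, and is in 2.98% of windows. The 2 Stat2 matches do not overlap. Among the windows printed, CCAAT, in 33.8% of all windows, was found in Stat3 (79 bases before the start) and Stat4 (88), both on the opposite strand, and in Stat2 (88 and 16). GGGCGG, in 32.7% of windows, was found in those of Jak2, Stat3 and Stat2 but not in that of Stat4. The windows differ in base composition: G and C made up 80.8% of the Jak2 window and 51.6% of the Stat4 window (median of all windows 52.4%), with 37 and 1 CpG. A match is a description of the letters and not a bound site.

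Among the kinases, Jak2 carried the largest difference. The normalized estimated count of Jak2, the kinase of the IL-12, IL-23 and interferon gamma receptors, was 8138, 9418 and 10106 in itaconate replicates 1, 2 and 3 and 15720, 14554 and 12905 in the NaCl replicates. Every itaconate library lay below every NaCl library, with a gap of 2799 between the groups. The means were 9221 ± 999 and 14393 ± 1414 (n = 3, SD), and the log2 fold change was −0.64 ± 0.10 SE (adjusted p = 0.000424, limma). On this scale the level with itaconate was 0.64 times that with NaCl (95% interval 0.549 to 0.746). For comparison, 25.7% of all tested genes differed by more than Jak2 did.

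Jak1, the kinase used most widely by cytokine receptors, did not pass the test. Its values were 7784, 7416 and 7147 with itaconate and 5878, 7039 and 6234 with NaCl. The groups did not overlap, but itaconate replicate 3 lay only 108 above NaCl replicate 2. The log2 fold change was 0.23 ± 0.088 SE (95% interval 0.034 to 0.42, adjusted p = 0.0631, limma, range over alternatives 0.0158 to 0.200). It passed without NaCl replicate 2 (adjusted p = 0.0349) and after quantile normalization (0.0158).

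Jak3, the kinase bound by the common gamma chain, had the widest spread of the kinases. Its values were 12925, 14270 and 17536 with itaconate and 13889, 17795 and 20092 with NaCl, so the groups overlapped. The log2 fold change was −0.21 ± 0.14 SE (95% interval −0.503 to 0.090, adjusted p = 0.263, limma). Replicate 1 was the low library in both groups. Without NaCl replicate 1, Jak3 passed at a log2 fold change of −0.35 (adjusted p = 0.0476, limma, range over alternatives 0.0307 to 0.951). The interval allows a fall to 0.706 times the NaCl level and a rise to 1.06 times, so equal levels were not shown.

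Tyk2, the kinase of the type I interferon and IL-12 receptors, had the smallest difference of the kinases. Its values were 1786, 1813 and 2067 with itaconate and 1998, 1876 and 2051 with NaCl. The groups overlapped, and the log2 fold change was −0.066 ± 0.094 SE (95% interval −0.27 to 0.14, adjusted p = 0.619, limma).

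**Figure D1:**
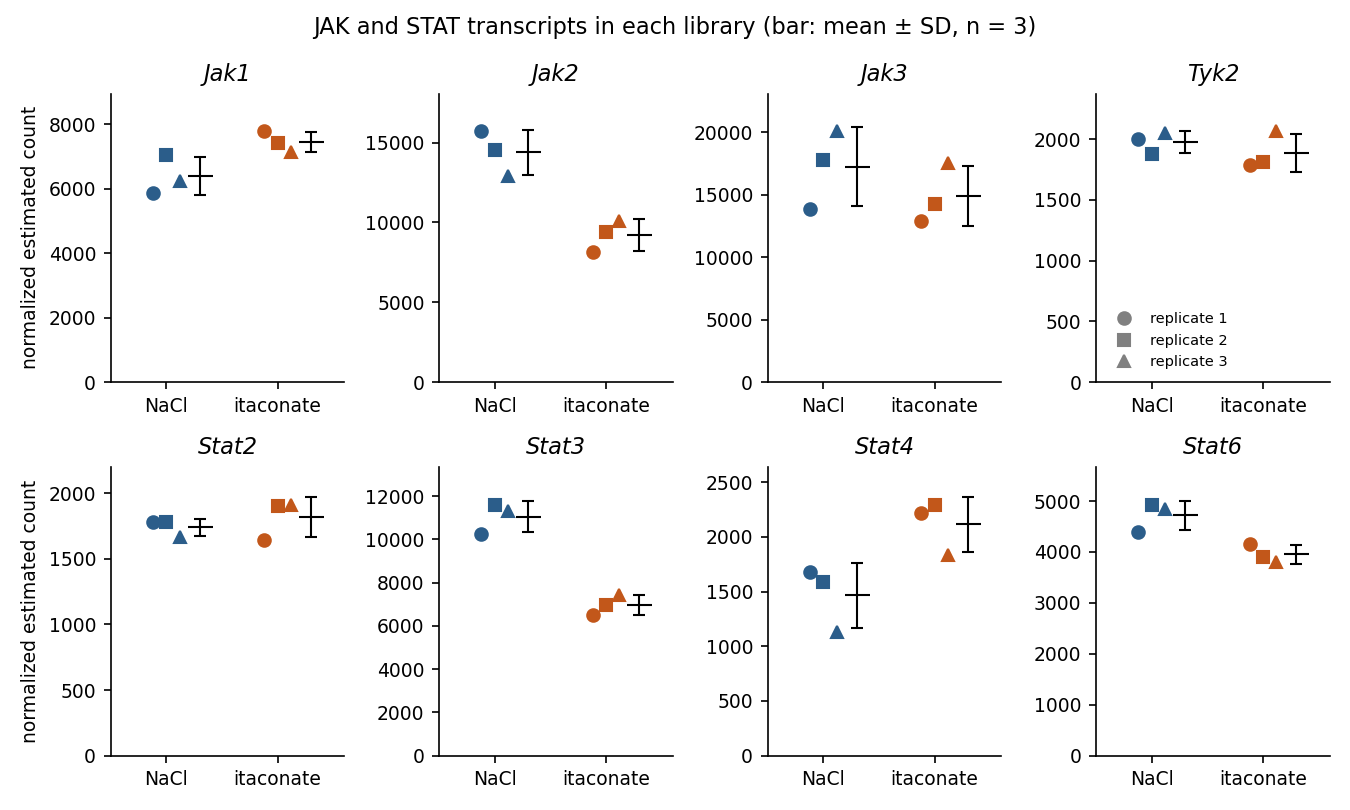
Normalized estimated count of each JAK and STAT transcript (vertical axis, from 0, a scale per gene) in the 3 NaCl and 3 itaconate libraries; symbols give the replicate number and bars the mean ± SD (n = 3). Jak2, Stat3 and Stat6 lie lower in every itaconate library than in any NaCl library, Jak1 and Stat4 lie higher, and the other transcripts overlap.

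Of the STATs, Stat3 had the largest difference and the smallest p-value. Stat3 was at 6515, 6954 and 7422 with itaconate and at 10266, 11607 and 11293 with NaCl. The groups were 2844 apart, and replicates within a group were close, with a coefficient of variation of 6.51% and 6.35%. The log2 fold change was −0.67 ± 0.086 SE (adjusted p = 9.45e-05, limma), a level 0.63 times that of NaCl (95% interval 0.554 to 0.716).

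Stat4 was the member that rose. Stat4, which relays IL-12 signals, was at 2216, 2294 and 1830 with itaconate and at 1678, 1587 and 1129 with NaCl. The groups did not overlap, but replicate 3 was the low library in both, and the gap between the groups was 152. The means were 2113 ± 249 and 1464 ± 294 (n = 3, SD), and the log2 fold change was 0.54 ± 0.14 SE (adjusted p = 0.0103, limma, range over alternatives 0.000353 to 0.0795). The call ended without itaconate replicate 2 (adjusted p = 0.0558) and in limma without the intensity trend (0.0795).

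Stat6, which relays IL-4 signals, differed by less. Its values were 4157, 3897 and 3802 with itaconate and 4393, 4928 and 4841 with NaCl, and the groups were 236 apart. The log2 fold change was −0.26 ± 0.084 SE (95% interval −0.44 to −0.073, adjusted p = 0.0313, limma, range over alternatives 0.0173 to 0.109). The call rested on single libraries: leaving out itaconate replicate 2 or 3 ended it (adjusted p = 0.101 and 0.0723), as did leaving out NaCl replicate 2 or 3 (0.109 and 0.0904).

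Stat2, which acts in the type I interferon response, did not pass. It was at 1646, 1902 and 1912 with itaconate and at 1778, 1780 and 1666 with NaCl, and itaconate replicate 1 was the lowest of the 6 libraries. The log2 fold change was 0.061 ± 0.095 SE (95% interval −0.14 to 0.27, adjusted p = 0.652, limma). In all, the groups did not overlap for 5 of the 8 transcripts, against 48.4% of all tested genes.

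**Figure D2:**
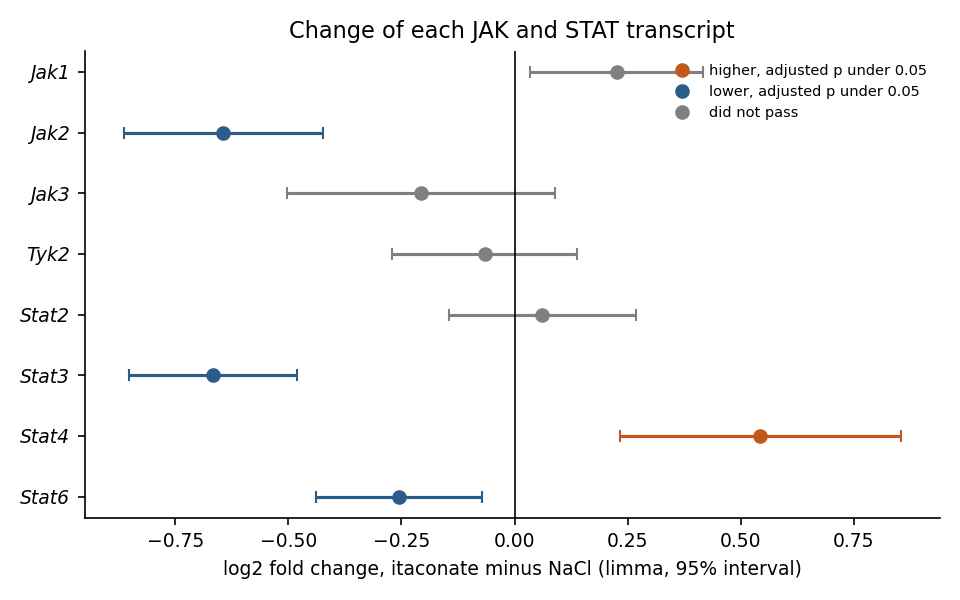
Log2 fold change of each transcript with itaconate relative to NaCl (horizontal axis), with the 95% interval from limma (n = 3 per group). Stat3 at −0.67 and Jak2 at −0.64 lie lowest, Stat4 at 0.54 lies highest, and the intervals of Jak3, Tyk2 and Stat2 include 0, while that of Jak1 lies just above 0.

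Ratios of one member to another inside a library do not depend on a factor applied to the whole library, though quantile normalization can change them. The log2 ratio of Jak1 to Jak2 was −0.064, −0.34 and −0.4998 in itaconate replicates 1, 2 and 3 and −1.42, −1.05 and −1.05 in the NaCl replicates. The difference in means was 0.87, and the groups did not overlap (exact permutation test, two-sided, p = 0.1). The log2 ratio of Stat3 to Stat4 was 1.56, 1.5998 and 2.02 with itaconate and 2.61, 2.87 and 3.32 with NaCl, a difference of −1.21 (exact permutation p = 0.1). The log2 ratio of Jak2 to Stat3 was 0.4013 ± 0.070 with itaconate and 0.38 ± 0.22 with NaCl (SD, n = 3), with overlapping groups (exact permutation p = 1). All 28 pairs of members were compared, 15 did not overlap between the groups, and these 3 pairs were picked after their values were seen. The pairs reuse the same genes, and no share over all gene pairs was computed. Of all tested genes taken singly, 48.4% did not overlap, so the 15 pairs are not read as a result about the members. With 3 libraries against 3 the exact permutation test cannot go below p = 0.1, which is 0.187 adjusted over the pairs, so it cannot pass a threshold of 0.05.

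Levels of different genes can be compared only per length of transcript, and the counts were therefore divided by the length of the longest principal transcript in GENCODE M21. Jak3 was the most abundant member on this scale in both groups, at 3710 ± 590 per kb with itaconate and 4294 ± 780 with NaCl (SD, n = 3). Jak2 came second at 1833 ± 199 and 2861 ± 281. Stat3 followed at 1542 ± 100 and 2448 ± 155, and Jak1 came next at 1518 ± 65.2 and 1301 ± 121. Stat6 was at 1047 ± 48.8 and 1251 ± 76.0, and Stat4 at 709 ± 83.3 and 491 ± 98.6. Stat2 (414 ± 34.3 and 396 ± 14.9) and Tyk2 (391 ± 32.0 and 409 ± 18.6) were lowest. Neighbours whose ranges overlapped with itaconate were Jak2 and Stat3, Stat3 and Jak1, and Stat2 and Tyk2. With NaCl they were Jak2 and Stat3, Jak1 and Stat6, Stat4 and Tyk2, and Tyk2 and Stat2. Places depend on the length used. The exons of Stat3 from all transcripts join to 9527 bases against 4516 in the principal transcript, and per joined length Stat3 had rank 3 with NaCl and rank 5 with itaconate. Per joined length with NaCl, Stat6 had rank 4 and Jak1 rank 5, and Stat2 lay above Tyk2. The ranges of Jak3 and Jak2 then overlapped with NaCl.

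The part of Jak3 in the summed per-kb level of the 4 kinases overlapped between the groups, at 49.6% ± 2.88 with itaconate and 48.2% ± 5.91 with NaCl (SD, n = 3; exact permutation p = 0.9). The part of Jak1 was 20.6% ± 2.86 (17.6% to 23.4%) with itaconate and 14.7% ± 0.99 (13.7% to 15.7%) with NaCl. That of Jak2 was 24.6% ± 0.92 (23.8% to 25.6%) and 32.5% ± 5.27 (27.7% to 38.1%). The groups did not overlap for Jak1, Jak2 or Tyk2, each at the smallest exact permutation p the design allows, 0.1. The level of Tyk2 itself overlapped between the groups. Of all tested genes taken singly, 48.4% did not overlap, so these separations are not read as a result about the kinases. A larger part for one kinase means a smaller part for the others, so these shares are not independent of each other.

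**Figure D3:**
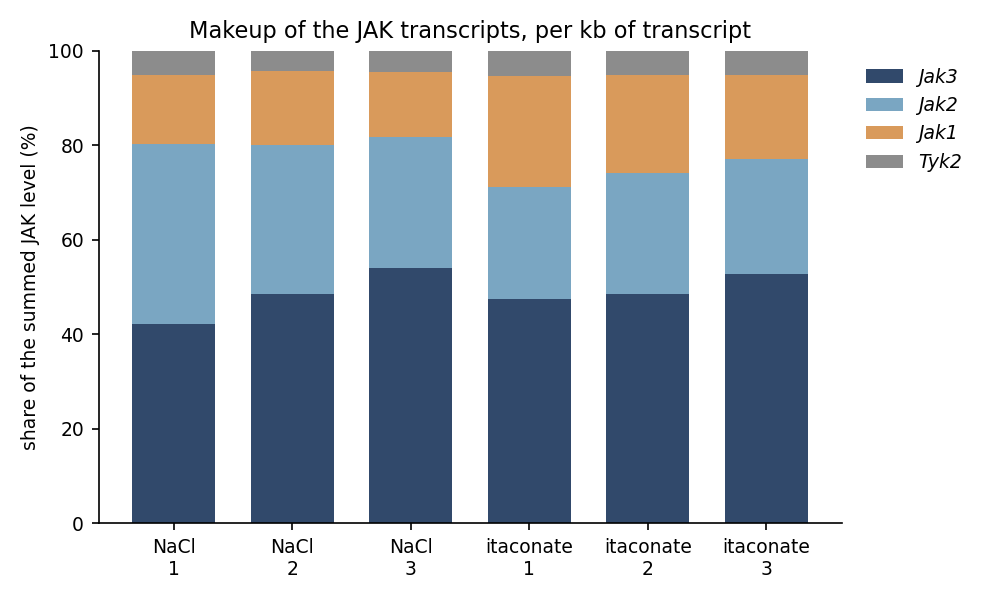
Share of each kinase transcript in the summed JAK level per kb of principal transcript (vertical axis, %) in each of the 6 libraries. The Jak1 segment is wider in each itaconate library (17.6% to 23.4%) than in any NaCl library (13.7% to 15.7%), and the Jak2 segment is narrower.

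Stat3 lies beside the Stat5 genes on its chromosome, and Stat6 and Stat2 share another. In GENCODE M21 on GRCm38, Stat4 (chr1:51987148-52107189, plus strand, 24 exons in the principal transcript) lies on chromosome 1. On chromosome 11, Stat3 (chr11:100885098-100939540, minus strand) lies tail to tail with Stat5a, and their last exons share 72 bases. Stat5a and Stat5b, the STATs of IL-2 signalling, were lower too, with log2 fold changes of −0.63 ± 0.10 SE (adjusted p = 0.000494, limma) and −0.25 ± 0.079 SE (0.0275). Stat5b lost its call in 8 of 16 alternatives. Stat6 (chr10:127642986-127660957) and Stat2 (chr10:128270559-128292849) are both on the plus strand, with 609.6 kb between them.

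The other members lie on 4 more chromosomes: Jak1 at chr4:101152367-101265282 (minus strand), Jak2 at chr19:29251828-29313080 (plus), Jak3 at chr8:71676296-71690575 (plus) and Tyk2 at chr9:21104068-21131243 (minus). Their principal transcripts have 25 exons each. The strand setting of the counting is not given in the sources used here, so reads in exon bases shared with an antisense gene cannot be told apart. These were 0.756% of the Stat3 exon bases (with Stat5a), 0.909% of those of Stat6 (with Nab2), 4 bases of Jak1 (with Raver2) and 8.07% of those of Tyk2, with a partner at a mean of 2.15. On the same strand, Jak3 shares 404 exon bases with Insl3, which had a mean of 623 against 16084 for Jak3. A transcript model that shares exons with Stat4, Gm28177, was at a mean of 0.393.

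Receptor chains that bind JAKs, or belong to such a complex, moved in both directions, with more falls than rises. Of 34 chains listed, 27 were tested, 5 rose, 11 fell and 11 did not pass, with a median log2 fold change of −0.28 (18.2% higher, 17.8% lower and a median of −0.00088 over all tested genes). The shares of the chains were 18.5% higher and 40.7% lower. The share that rose lay near that of all tested genes and is not read as a result about the receptors. In limma without the intensity trend 2 chains rose. The chains with the smallest p-values were the IL-12 receptor chains Il12rb1 (−1.05 ± 0.10 SE, adjusted p = 1.14e-05, limma) and Il12rb2 (−0.9996 ± 0.14), which bind TYK2 and JAK2, and the IL-2 receptor alpha chain Il2ra (−1.18 ± 0.14), which binds no JAK itself but belongs to the complex. Il2rb, which holds JAK1, was at −0.71 ± 0.13 on the log2 scale, and Il4ra and Il21r at −0.86 ± 0.16 and −0.56 ± 0.14 (adjusted p = 0.00107, 0.00143 and 0.00685, limma). Il2rg, the common gamma chain that holds JAK3, did not pass, at 7947 ± 660 with itaconate and 8230.0 ± 505 with NaCl (SD, n = 3), a log2 fold change of −0.052 ± 0.089 SE (adjusted p = 0.683, limma). The 5 chains that rose were both chains of the type I interferon receptor, Ifnar1 (0.53 ± 0.087) and Ifnar2 (0.28 ± 0.092), the interferon gamma receptor chain Ifngr1 (0.56 ± 0.13), the IL-6 family chain Il6st (0.53 ± 0.13) and Il11ra1 (0.76 ± 0.19). Ifnar1 went from 2367 ± 146 to 3411 ± 144. Apart from Il12rb1, Il12rb2 and Il2ra, the chains named here were chosen after their values were seen.

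**Figure D4:**
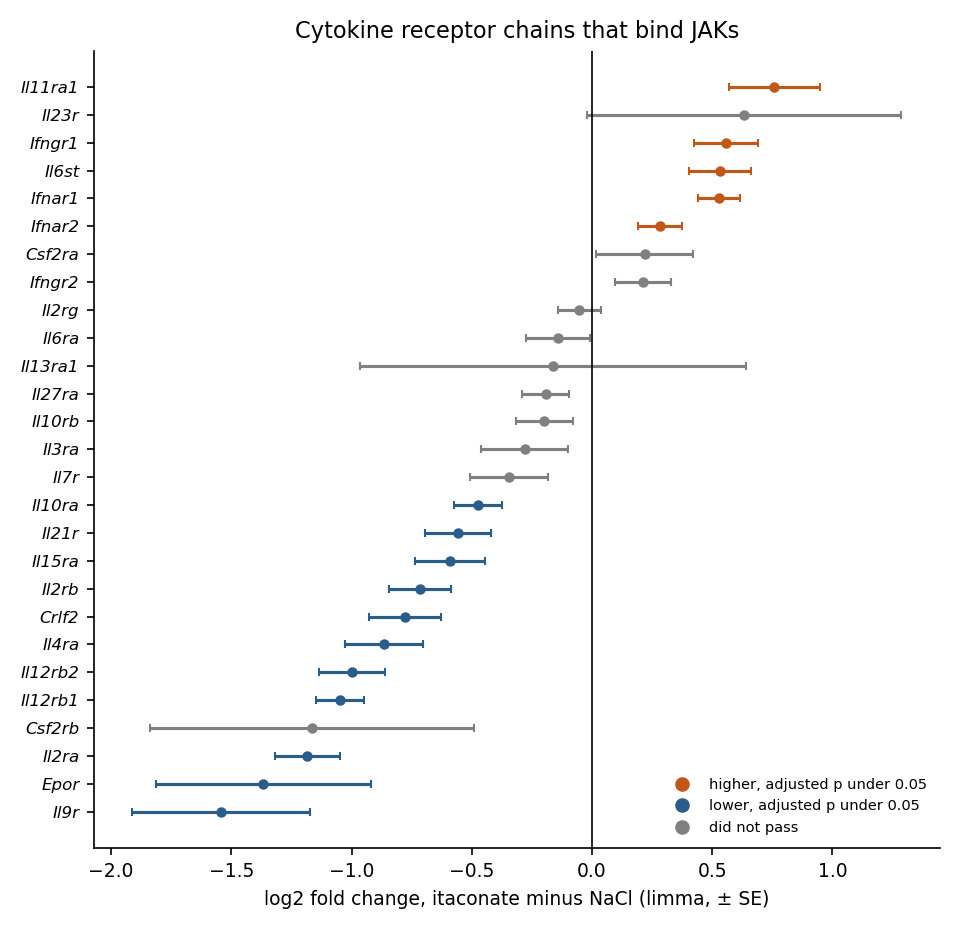
Log2 fold change with itaconate relative to NaCl (horizontal axis, ± SE from limma) of the 27 tested receptor chains that bind JAKs or belong to such a complex, ordered by change. Both type I interferon receptor chains lie above 0 and the IL-12 and IL-2 receptor chains Il12rb1, Il12rb2, Il2ra and Il2rb lie below −0.5.

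The brakes of the pathway moved in both directions. SOCS proteins are inhibitors of JAKs and receptors, and some of them are induced by STATs. Of 8 SOCS family genes 3 rose, 2 fell and 3 did not pass (median log2 fold change −0.27), where 18.2% of all tested genes rose and 17.8% fell. Single libraries moved this count: without itaconate replicate 2, 0 rose and 1 fell, without NaCl replicate 3, 1 rose and 1 fell, and without itaconate replicate 3, 4 fell. In limma without the intensity trend 0 rose and 1 fell. Cish and Socs1, feedback inhibitors of cytokine receptors, changed by −0.53 ± 0.11 SE (adjusted p = 0.00211, limma) and −0.596 ± 0.16 (0.0107), while Socs7, Socs4 and Socs5 rose by 0.46 ± 0.12, 0.46 ± 0.12 and 0.39 ± 0.13 (0.00915, 0.0111 and 0.0359). Socs3, a known inhibitor of IL-6 family signals, did not pass (−0.43 ± 0.23, adjusted p = 0.164). Of 15 phosphatases, PIAS genes and other brakes, 4 rose, 1 fell and 10 did not pass (median 0.013), again against 18.2% and 17.8% of all tested genes. The 1 that fell became 2 in 6 of 16 alternatives, among them those without itaconate replicate 1 and without NaCl replicate 3. Pias3, which encodes an inhibitor of STAT3, rose from 383 ± 14.4 to 694 ± 30.01 (SD, n = 3), by 0.86 ± 0.12 SE on the log2 scale (adjusted p = 0.000151, limma). Cblb, a ubiquitin ligase gene, rose by 0.66 ± 0.099 (0.000302), Pias1 by 0.403 ± 0.096 (0.00585) and Ptpn6, the SHP-1 phosphatase gene, by 0.35 ± 0.11 (0.0281), and Usp18, which restrains the type I interferon receptor, changed by −0.99 ± 0.16 (0.000493). Ptprc, the CD45 phosphatase gene and the highest of this list, was at 0.0038 ± 0.099 (adjusted p = 0.98).

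Genes known to respond to each STAT were counted beside the STAT itself, with no claim that the one set the other. These lists were drawn up with earlier results on these data known, and they share members with each other. Over all tested genes 18.2% rose and 17.8% fell, with a median log2 fold change of −0.00088, and the counts are read against these shares. Of 12 genes that respond to STAT6, 2 rose and 9 fell (16.7% and 75.0%, median log2 fold change −1.30), and those with the smallest p were Il24 (−3.79 ± 0.28 SE, adjusted p = 2.29e-06, limma), Il4 (−3.43 ± 0.31) and Gata3 (−1.27 ± 0.12), all of the Th2 lineage. The 2 that rose, Bcl6 (1.90 ± 0.32) and Klf2 (1.32 ± 0.24), encode a regulator of follicular helper cells and a factor of quiescent T cells. They were named after their values were seen. Of 10 genes that respond to STAT4, 1 rose and 5 fell (against 18.2% and 17.8% of all tested genes, median −0.64). The 1 that rose became 0 among genes with a mean of at least 100 and 2 in limma without the intensity trend. Furin, a protease gene induced by IL-12, changed by −1.58 ± 0.097 (adjusted p = 5.5e-07, limma), and Il12rb2 fell as given above. The Th1 regulator gene Tbx21 (−0.75 ± 0.13) and the cytotoxic granule genes Prf1 (−0.95 ± 0.23) and Gzmb (−0.46 ± 0.13) fell as well, the Gzmb values overlapping between the groups. Il18r1, an IL-18 receptor chain gene, rose by 1.91 ± 0.27 (0.000182).

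Of 14 genes that respond to STAT3, 3 rose and 5 fell (21.4% and 35.7%, against 18.2% and 17.8% of all tested genes, median −0.37). Batf, an AP-1 factor gene, changed by −1.69 ± 0.12 SE (adjusted p = 1.74e-06, limma) and Il21, a cytokine gene, by −2.20 ± 0.23 (2.26e-05). Rora (0.95 ± 0.19) and Il6st were among those that rose, and Il10 (−3.23 ± 0.43) and Junb (−0.85 ± 0.13) also fell. Hif1a, the gene of the oxygen-regulated factor, was the highest of that list and changed by −0.66 ± 0.13 (0.00234). Of 12 genes that respond to STAT2 and IRF9, 1 rose and 6 fell (8.33% and 50.0%, against 18.2% and 17.8% of all tested genes, median −1.24), and Stat2 itself did not pass. Isg15, a ubiquitin-like modifier gene, was at −2.10 ± 0.23 (2.87e-05), Irf7, an interferon regulatory factor gene, at −1.69 ± 0.23 (0.00013), and Usp18 as given above. The 1 that rose was Bst2 (0.44 ± 0.11). Irf9, the DNA-binding partner of STAT2, was at 1023, 1054 and 1300 with itaconate and 1612, 1819 and 1518 with NaCl. The groups did not overlap (log2 fold change −0.56 ± 0.12 SE, adjusted p = 0.00274, limma). Each gene counted once, the 8 pathway lists held 93 tested genes, of which 18 rose and 38 fell. These are 19.4% and 40.9%, so the share that rose lay near the 18.2% of all tested genes and is not read as a result about the pathway, while 17.8% of all tested genes fell. Tbx21, Prf1, Rora, Il6st, Il10, Junb, Bst2 and, among the brakes, Socs3, Socs4, Socs5, Pias1 and Ptpn6 were picked for naming with their values in view.

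For each member, the gene most like it over the 6 libraries was found by Pearson's r of log2 values among 11625 named genes. The nearest genes were Sdf4 to Stat3 (r = 0.999), Styx to Jak2 (0.998), Slc12a8 to Stat6 (0.998), Wdr44 to Jak1 (0.997), Fmo5 to Jak3 (0.996), Rnf138 to Stat4 (0.992), Pcif1 to Tyk2 (0.986) and Arel1 to Stat2 (0.980). Each is the highest of 11625 values over 6 points that share their libraries and treatment groups, so a value near 1 is a description only.

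The libraries held 20074299 to 24144999 estimated reads. CD4 T cell markers were present throughout, with Cd4 at 13508 ± 435 with itaconate and 9519 ± 853 with NaCl (SD, n = 3), a log2 fold change of 0.51 ± 0.087 SE (adjusted p = 0.000724, limma). Of the 8 T cell markers Cd4, Cd28, Cd3e and Lck rose and Cd3g fell (50.0% and 12.5%), where 18.2% of all tested genes rose and 17.8% fell. The summed values of the 8 were 69515 to 71647 with itaconate and 58919 to 65164 with NaCl. Markers of NK cells, which also use STAT4, summed to 202 to 236 with itaconate and 95.4 to 129.5 with NaCl, nearly all from Eomes (214 ± 19.2 and 111 ± 16.0), which T cells can express too. The defining NK genes Ncr1, Klra8 and Klre1 were at 0 in every itaconate library. With NaCl, Ncr1 was at 0 to 2.04, Klra8 at 0 to 1.82 and Klre1 at 0. Klrb1c was at 0 to 2.05 with itaconate and 0 to 0.908 with NaCl. The 6 B cell markers summed to 1889 to 1996 with itaconate and 1204 to 1467 with NaCl, mostly Ighm, which rose. The 8 macrophage and dendritic cell markers summed to 123 to 179 and 67.3 to 112, mostly Cd68, which rose. The 4 stromal and endothelial markers summed to 447 to 585 and 823 to 1007, mostly Pecam1, which fell. The 2 CD8 markers summed to 308 to 365 and 363 to 408, the 4 neutrophil markers to 15.9 to 30.8 and 34.2 to 64.4, and the 4 erythroid markers to at most 3.01. The part of these markers in the JAK and STAT differences was not tested. In bulk RNA, fewer cells of a type and less RNA per cell cannot be told apart.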

How the data were processed

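Gene values were read from 1 table that the authors deposited, which holds normalized estimated counts, an expression signal that is never negative, in 6 libraries. Per the submitters' processing notes, reads were processed with STAR 2.7.0f and RSEM 1.3.0 on the mm10 genome. Annotation, size factor method, strand setting and filters were not given in the sources used here. Within a library, 1 read was worth a fixed amount, which gave the estimated totals. Between 79.9% and 82.1% of values came out as whole reads (tolerance 0.02 reads), and all came out as hundredths of a read (tolerance 0.05 hundredths). As the values are normalized estimated counts, no count model was used. For 107 symbols on several entries the highest entry kept the symbol. A value is relative to the rest of its library.

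Genes with a mean of at least 10 (13180) entered limma 3.58.1 (R 4.3.3) as log2(value + 1), with treatment as the only term and an intensity trend of the variance. Tests were two-sided, and p-values were Benjamini-Hochberg adjusted across the tested genes with a threshold of 0.05. Fold changes are differences of log2(value + 1) and understate those of low genes. Ratios and shares were compared by exact permutation tests in scipy 1.17.1. The fit was tested on simulated data in which far fewer genes changed than were called here, so that test does not give the error rate of these calls. Replicates of a group differed by more than sampling noise (chi-square per degree of freedom 12.8 to 25.5). Positions and lengths are from GENCODE M21 on GRCm38.

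The genes named are the 8 members, Stat5a, Stat5b and Irf9, of each list the up to 3 members with the smallest p that passed and the highest one, and the gene most like each member; some genes this rule covers are not reported here. Members and lists were chosen with earlier results of these data known. The 16 alternatives were pseudocounts of 0.1 and 10, no filter, a mean of at least 100, median-ratio, TMM and quantile scaling, the replicate number as a block, limma without trend or with robust variances, and each library left out. The median-ratio factor was 1.00702 in every library, so the values were already on that scale. That alternative could hardly change a result and adds no support to counts over the 16.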

Additional observations from a re-analysis of the deposited data

How the results depend on the processing

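Jak2 and Stat3 stayed below the threshold of 0.05 and lower with itaconate in all 16 alternatives, with log2 fold changes of −0.72 to −0.46 and −0.72 to −0.55. Tyk2 and Stat2 did not pass in any of the 16. The number of members that rose, 1, became 2 after quantile normalization, where Jak1 passed (log2 fold change 0.29, adjusted p = 0.0158), and 0 in limma without the intensity trend, where Stat4 (0.54, adjusted p = 0.0795) and Stat6 (−0.26, adjusted p = 0.0919) did not pass. With no filter, where 21277 genes were tested, Stat6 did not pass (−0.26, adjusted p = 0.0508). Leaving out each library in turn gave 0 to 2 members higher and 2 to 4 lower, with log2 fold changes of 0.17 to 0.2983 for Jak1, −0.35 to −0.088 for Jak3, 0.37 to 0.65 for Stat4 and −0.31 to −0.22 for Stat6. More genes were tested without a filter, and fewer samples remained with a library left out. The cause of these changes was not tested. The counts over all tested genes, and those over the pathway lists joined, stayed within 1.5 times their values in all 16 alternatives. Counts of single lists did not: limma without the intensity trend gave 0 SOCS genes higher and 1 lower, 2 receptor chains higher and 2 STAT4 genes higher, and a mean of at least 100 gave 0 STAT4 genes higher. Of the brakes, 2 in place of 1 were lower in 6 of 16 alternatives. Libraries left out gave 0 to 3 SOCS genes higher and 1 to 4 lower.

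The replicate numbers are not tied to a mouse or day, and deviations from the group means correlated at 0.146, 0.038 and 0.13 for numbers 1, 2 and 3. Each library correlated best with the library of its own number, a hint from the data and not from the design. With the replicate number as a block, 2 members rose and 4 fell: Jak1 (0.23, adjusted p = 0.0308) and Jak3 (−0.21, adjusted p = 0.0307) also passed, 8 genes of the STAT3 list were lower in place of 5, and 2855 genes rose and 2781 fell. In the main fit, without this block, the SE of the members' log2 fold changes was 0.084 to 0.14, which limits what 3 libraries a group can resolve.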
